A study of Mus musculus with 6 samples.

Results

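The chemoattractant receptors of neutrophils and monocytes were followed through 9 genes, Cxcr2, Cxcr4, Ccr1, Ccr2, Cx3cr1, C5ar1, Fpr1, Fpr2 and Ltb4r1. Every probe whose annotated symbol was among these genes was taken, which gave 10 probes of 8 genes out of 45281 probes and 19057 named genes on the array. Cxcr2 and Ccr2 had 2 probes each, the other 6 genes had 1, and no probe carried the symbol Fpr1, which was not analysed here. RNA came from splenic CD11b+Gr-1high cells, the granulocytic fraction of the myeloid-derived suppressor cells, sorted by flow cytometry to over 98% purity and hybridized to Illumina MouseWG-6 arrays. All mice were female BALB/c, 6 to 8 weeks old. The WT mice bore no tumor, the G-CSF mice received 10 µg of recombinant G-CSF under the skin daily for 5 days, and the 4T1-TB mice carried mammary tumors of over 1000 mm3 grown from 50000 injected 4T1 cells, a BALB/c mammary carcinoma line. Each group had 2 arrays from independent experiments, and the study compared the groups to ask how close the cells of mice given G-CSF were to those of mice with a tumor.

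Chemoattractant receptors are G protein-coupled receptors that read gradients of chemokines, complement fragments, formyl peptides and leukotrienes and steer myeloid cells along them. Cxcr2 draws neutrophils out of the bone marrow toward CXCL1 and CXCL2, whereas Cxcr4 holds them in the marrow through CXCL12, and G-CSF is known to mobilize neutrophils by tipping this balance. C5ar1 reads a complement fragment, Fpr1 and Fpr2 formyl peptides and Ltb4r1 a leukotriene. Ccr1 binds chemokines, and Ccr2 and Cx3cr1 serve monocytes above all.

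The promoters of the 4 receptors that were detected on all 6 arrays are shown because Cxcr2 and Cxcr4 were at lower normalized levels, and Fpr2 and Ltb4r1 at higher ones, in the G-CSF and 4T1-TB cells. Each is the 250 bases before the annotated start, 5′ to 3′ on the strand of the gene, from RefSeq on GRCm38.p6: Cxcr2 at chr1:74153744-74153993 on the plus strand, Cxcr4 at chr1:128592300-128592549 on the minus strand, Fpr2 at chr17:17887574-17887823 on the plus strand and Ltb4r1 at chr14:55765712-55765961 on the plus strand. Capitals mark matches to the STAT motif TTCNNNGAA, since STAT proteins act downstream of the G-CSF receptor, or to the PU box GAGGAA of the myeloid factor PU.1, read on either strand.
Cxcr2: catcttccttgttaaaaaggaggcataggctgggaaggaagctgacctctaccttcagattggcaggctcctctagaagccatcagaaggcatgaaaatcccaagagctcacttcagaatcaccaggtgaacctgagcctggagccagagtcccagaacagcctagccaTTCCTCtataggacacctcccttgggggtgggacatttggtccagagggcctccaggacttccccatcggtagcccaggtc
Cxcr4: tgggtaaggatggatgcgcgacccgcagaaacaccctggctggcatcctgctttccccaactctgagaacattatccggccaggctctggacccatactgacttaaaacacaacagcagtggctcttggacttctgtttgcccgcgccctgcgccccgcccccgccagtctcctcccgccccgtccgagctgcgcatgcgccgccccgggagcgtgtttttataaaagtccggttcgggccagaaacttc
Fpr2: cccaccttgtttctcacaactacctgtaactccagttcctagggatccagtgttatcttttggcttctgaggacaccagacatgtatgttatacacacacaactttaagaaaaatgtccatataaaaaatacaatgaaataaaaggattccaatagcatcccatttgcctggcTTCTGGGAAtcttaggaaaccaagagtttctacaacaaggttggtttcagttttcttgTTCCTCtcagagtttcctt
Ltb4r1: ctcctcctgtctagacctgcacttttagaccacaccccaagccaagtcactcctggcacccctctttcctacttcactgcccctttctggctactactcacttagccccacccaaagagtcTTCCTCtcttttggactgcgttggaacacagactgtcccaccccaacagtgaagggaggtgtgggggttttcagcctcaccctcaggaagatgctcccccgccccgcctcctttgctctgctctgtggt

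The PU box stood 81 to 76 bases before the start of Cxcr2, 19 to 14 before that of Fpr2 and 129 to 124 before that of Ltb4r1. The promoter of Ccr1 held it as well, 129 to 124 bases before its start. The Fpr2 promoter alone among the 9 genes matched the STAT motif, as TTCTGGGAA 77 to 69 bases before the start, and that of Cxcr4 matched neither. The C/EBP motif TTGCNNAA was found in none of the 9. Among 32851 mouse promoters of the same length, 23.3% held the PU box, 7.02% the STAT motif and 9.56% the C/EBP motif. A PU box on the minus strand can lie within a STAT match, but the matches in these promoters did not overlap. A match describes the sequence and is no evidence of binding.

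The arrays differed in brightness before normalization. The median intensity was 117.2 to 126.9 on the 6 arrays, but the brighter probes of WT were dimmer, with 95th percentiles of 247.3 and 207.2 against 336.1 to 542.7 on the other 4 arrays. Quantile normalization therefore moved probes with a normalized log2 value near 10 by 0.71 and 1.18 upward on the WT arrays and by 0.03 to 0.91 downward on the rest. Of 14 measured neutrophil markers, 13 were detected (detection p under 0.05) on both WT arrays, 12 on both G-CSF arrays and 11 on both 4T1-TB arrays. Itgam, which encodes the CD11b used in the sort, was detected through its 1 probe on the WT arrays only, and Ly6g, a main target of the Gr-1 antibody, matched no probe. Hba-a1, an α-globin gene, reached 12.05 on G-CSF replicate 1 and 14.27 on 4T1-TB replicate 1, against 7.16 to 10.31 on the other 4 arrays.

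Of the 10 receptor probes, 4 were detected on every array, namely Cxcr4, Fpr2, Ltb4r1 and 1 of the Cxcr2 probes. Another 4 were detected on some arrays and 2 on none. With limma and Benjamini-Hochberg adjustment over all probes, 1 receptor probe passed (adjusted p under 0.05) in G-CSF against WT and 1 in 4T1-TB against WT, in each case Cxcr4 at a lower level. Over all probes, 4.53% passed in G-CSF against WT and 5.49% in 4T1-TB against WT, and 2.31% and 2.56% passed at a lower level. Among probes detected on at least 2 arrays, 17.8% and 21.5% passed in either direction. No receptor probe passed in 4T1-TB against G-CSF, where 0% of all probes passed and where no receptor probe had an unadjusted P under 0.05. By the criterion in the study's methods, a change of 2-fold or more at an unadjusted P below 0.01, 2 probes (Cxcr2 and Cxcr4) were called in G-CSF against WT, 1 (Cxcr2) in 4T1-TB against WT and 0 in 4T1-TB against G-CSF, where this criterion called 2.88%, 3.51% and 0.0751% of all probes. Both comparisons with WT use the same 2 WT arrays, so they are not independent of each other.

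**Figure D1:**
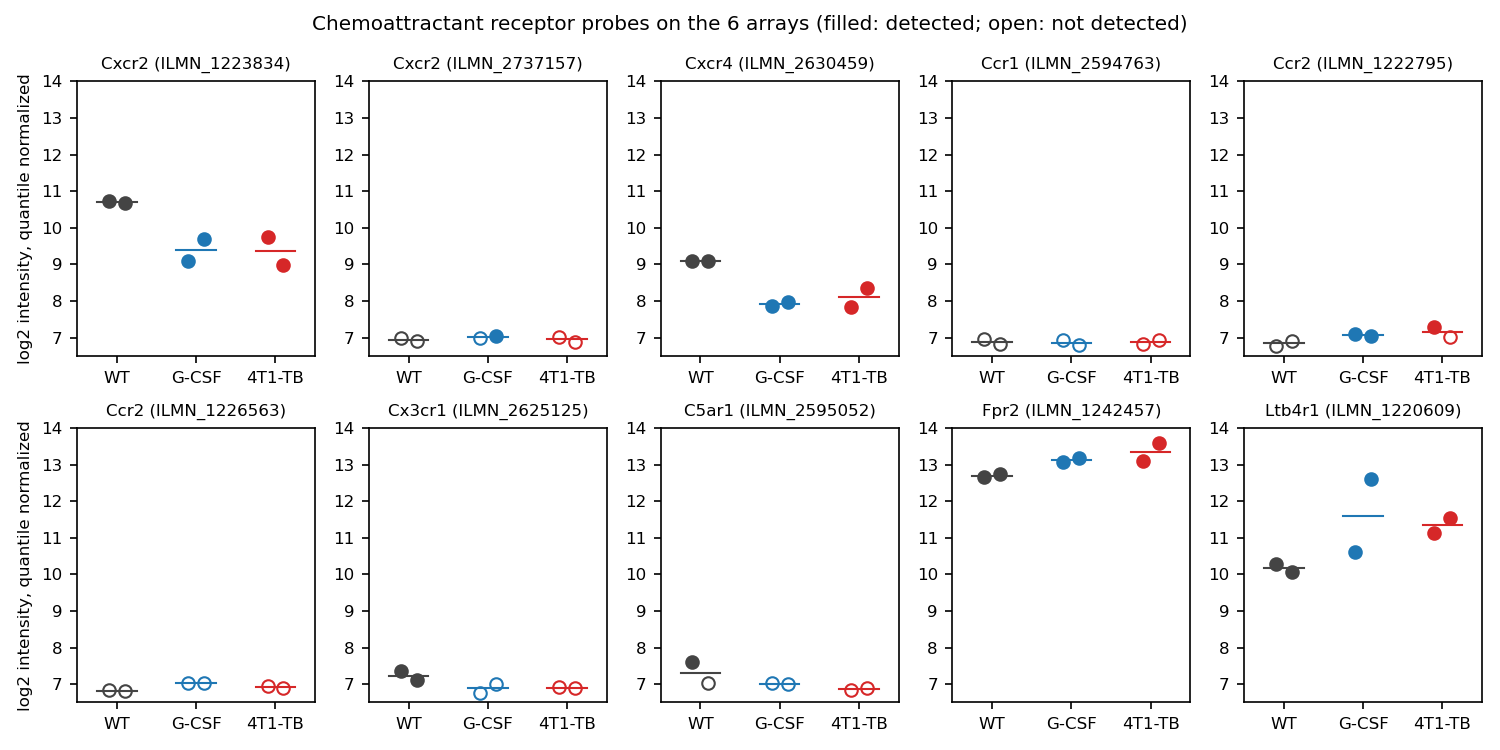
Quantile-normalized log2 intensity of the 10 receptor probes (vertical axis) on the 2 arrays of each group, with a line at the group mean. Filled points are detected and open points are not. Cxcr2 (ILMN_1223834) and Cxcr4 were highest in WT, Fpr2 and Ltb4r1 were lowest there, and the dim probes lay between 6.77 and 7.60.

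Of the 4 receptors detected on every array, Cxcr4 and Cxcr2 had lower normalized levels than in WT. Cxcr4, the CXCL12 receptor, had normalized log2 intensities of 9.09 and 9.10 in WT, 7.85 and 7.98 in G-CSF and 7.84 and 8.36 in 4T1-TB cells. All 4 arrays of treated or tumor-bearing mice lay below both WT arrays, and the G-CSF and 4T1-TB values overlapped. On this scale Cxcr4 fell by 1.18 in G-CSF cells, a 2.26-fold lower level (SE 0.17, 95% CI -1.60 to -0.76, limma adjusted p = 0.0202, 2 arrays per group). In 4T1-TB cells it fell by 0.99, a 1.99-fold lower level (SE 0.17, 95% CI -1.41 to -0.57, limma adjusted p = 0.0316). Between 4T1-TB and G-CSF the log2 difference was 0.18 (95% CI -0.24 to 0.60). Neither call held without WT replicate 1 (limma adjusted p = 0.147 and 0.187) or without WT replicate 2 (0.164 and 0.211). In bulk RNA, fewer cells that carry a transcript and less of it per cell cannot be told apart.

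The fall in Cxcr4 was not present before normalization. The deposited Cxcr4 intensities were 346.6 and 272.2 in WT, 307.5 and 275.2 in G-CSF and 290.4 and 313.8 in 4T1-TB cells, so that the 3 groups overlapped. With the log2 intensities centred on each array's median in place of quantile normalization, the log2 fold changes were -0.064 and 0.0052 (limma adjusted p = 0.934 and 0.995). With the neqc method, which subtracts the background before quantile normalization, they were -1.79 and -1.48 (adjusted p = 0.0593 and 0.0880). Each array detected 7421 to 10036 of the 45281 probes, so its median was a signal near background. Centring on that median left the brighter probes of the WT arrays dimmer than those of the other arrays. The call therefore rested on how the arrays were scaled, and which scaling is nearer to the cells was not tested.

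Cxcr2, the receptor of CXCL1 and CXCL2, followed the same course on its detected probe, ILMN_1223834. Its normalized log2 intensities were 10.74 and 10.68 in WT, 9.10 and 9.69 in G-CSF and 9.74 and 8.97 in 4T1-TB cells. Both WT values were above all others, and the G-CSF and 4T1-TB values overlapped. The log2 fold change was -1.31 in G-CSF against WT (SE 0.30, 95% CI -2.05 to -0.58, unadjusted P = 0.00514, limma adjusted p = 0.0876) and -1.35 in 4T1-TB against WT (SE 0.30, 95% CI -2.09 to -0.61, unadjusted P = 0.00454, limma adjusted p = 0.0707). These differences, of 2.49-fold and 2.55-fold, thus met the fold-change criterion of the study's methods and missed the adjusted threshold, which they passed under limma's trended, robust prior (0.0192 and 0.0130).

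The Cxcr2 intensities before normalization were 1077.8 and 712.5 in WT, 976.7 and 986.2 in G-CSF and 1334.2 and 491.3 in 4T1-TB cells. The 4T1-TB arrays were thus the highest and the lowest of the 6. After median centring the log2 fold changes of Cxcr2 were 0.18 and -0.084 (limma adjusted p = 0.939 and 0.977), with no direction in common. The other Cxcr2 probe, ILMN_2737157, was detected on G-CSF replicate 2 only and ranged from 6.88 to 7.05.

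**Figure D2:**
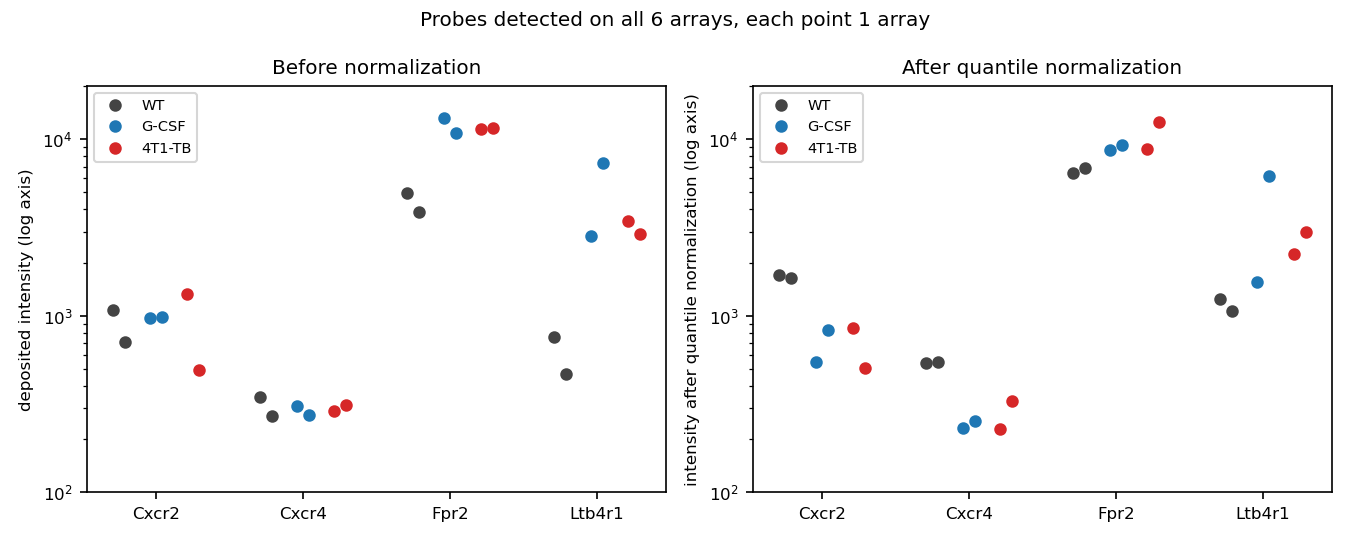
The 4 receptor probes detected on all 6 arrays, each point 1 array, as deposited (left) and after quantile normalization (right), both on log axes of intensity. Cxcr2 and Cxcr4 overlapped between the groups before normalization and separated WT from the rest after it, whereas Fpr2 and Ltb4r1 were lowest on the WT arrays on both scales.

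The receptors of formyl peptides and leukotrienes had the opposite order. Fpr2, which in the mouse binds formyl peptides, serum amyloid A and annexin A1, had normalized log2 intensities of 12.65 and 12.75 in WT, 13.08 and 13.19 in G-CSF and 13.10 and 13.60 in 4T1-TB cells. Its deposited intensities were 4940.9 and 3873.7, 13251.6 and 10778.0, and 11422.1 and 11595.4 in the same order. On either scale both WT arrays lay below the other 4, which overlapped among themselves. The log2 fold changes were 0.43 in G-CSF (SE 0.17, 95% CI 0.02 to 0.84, limma adjusted p = 0.345) and 0.65 in 4T1-TB cells (SE 0.17, 95% CI 0.24 to 1.06, limma adjusted p = 0.112), which did not pass. After median centring they were 1.46 and 1.43, which is 2.76-fold and 2.69-fold higher, with limma adjusted p = 0.0677 and 0.0908. The 4T1-TB difference passed when only the 4 arrays of the pair compared entered the model (limma adjusted p = 0.0484). With 1 array left out at a time, its log2 fold change lay between 0.40 and 0.90, the highest without 4T1-TB replicate 1.

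Ltb4r1, which encodes the high-affinity receptor of leukotriene B4, varied most within a group among the receptor probes. Its normalized log2 intensities were 10.28 and 10.06 in WT, 10.60 and 12.59 in G-CSF and 11.14 and 11.54 in 4T1-TB cells. G-CSF replicate 2 was the highest array, while G-CSF replicate 1 was only slightly above WT. The 4 deposited intensities of the G-CSF and 4T1-TB arrays, 2812.9, 7303.9, 3439.4 and 2905.5, were all above the WT values of 757.9 and 468.0. The log2 fold changes were 1.42 (SE 0.61, 95% CI -0.11 to 2.95, limma adjusted p = 0.419) and 1.17 (SE 0.61, 95% CI -0.36 to 2.70, limma adjusted p = 0.523).

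The G-CSF arrays had the widest spread of Ltb4r1 (SD 1.41 on the log2 scale, n = 2), against 0.15 in WT and 0.29 in 4T1-TB cells, and limma pools the 3 groups. Without G-CSF replicate 1 the G-CSF difference was 2.42 (limma adjusted p = 0.000727), and without G-CSF replicate 2 it was 0.43 (adjusted p = 0.271). G-CSF replicate 1 is an array with a high Hba-a1 signal, whose part in this spread was not tested. A gap between the G-CSF arrays was not particular to Ltb4r1, since Gnb2, a G protein subunit gene, had 7.42 on replicate 1 and 12.10 on replicate 2. The 4T1-TB difference of Ltb4r1, 1.17, passed when only the 4 arrays compared entered the model (limma adjusted p = 0.00236). Leaving out either G-CSF array amounts to the same fit, since a lone array adds nothing to the estimated spread. With 1 array left out at a time, this difference lay between 0.96 and 1.37. After median centring the differences were 2.94 and 2.44, or 7.69-fold and 5.42-fold higher (limma adjusted p = 0.105 and 0.167).

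**Figure D3:**
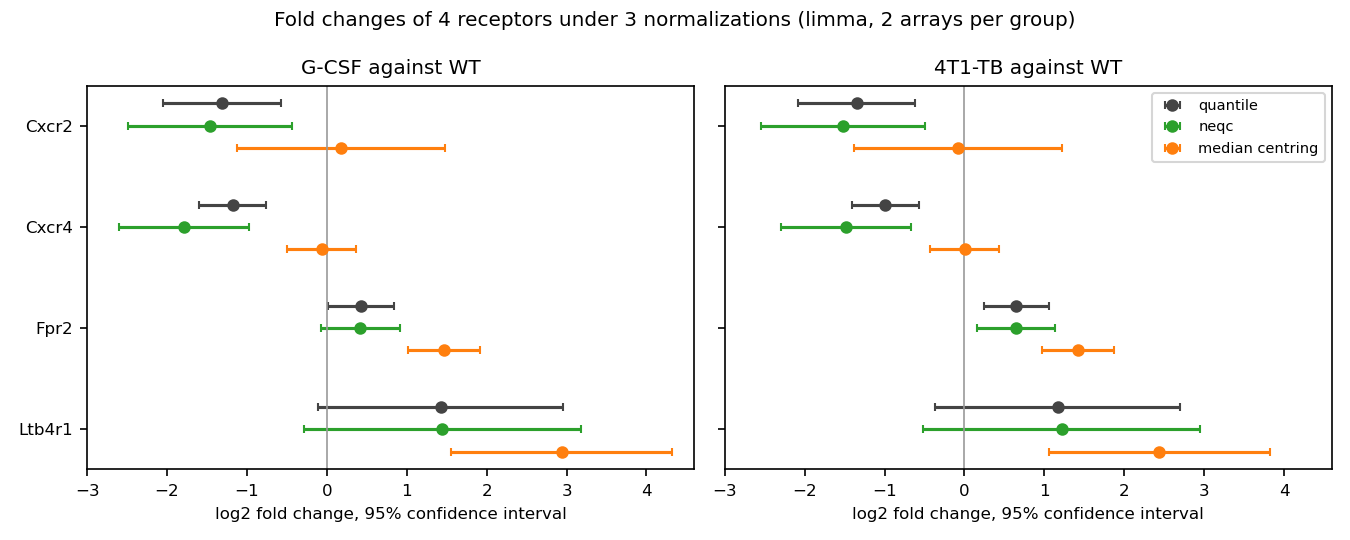
log2 fold changes of 4 receptors with their 95% confidence intervals (horizontal axis) in G-CSF and in 4T1-TB against WT under quantile normalization, neqc and median centring. Median centring moved each receptor to the right, which brought Cxcr2 and Cxcr4 to within 0.18 of 0 and raised Fpr2 and Ltb4r1 to between 1.43 and 2.94.

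The same shift ran through the whole array. Of the probes called by the criterion of the study's methods, 45.8% were higher in G-CSF and 50.2% in 4T1-TB cells after quantile normalization, against 86.8% and 84.8% after median centring and 55.8% and 58.5% after neqc. Over detected probes the median difference on the log2 scale went from 0.07 in each comparison to 0.21 and 0.17 with median centring. With neqc it was 0.20 in each.

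Ccr1, Ccr2, Cx3cr1 and C5ar1 were at or near the background. Cx3cr1, the fractalkine receptor, was detected on the WT arrays only, with log2 intensities of 7.35 and 7.12, and was not detected in G-CSF (6.77 and 6.99) or 4T1-TB cells (6.93 and 6.88). Both WT values exceeded the other 4. Its level was lower by a factor of at least 1.15 in G-CSF and of at least 1.14 in 4T1-TB cells, where a probe below background on every array of a group was set to the lowest detected signal of its array or its own signal, whichever was higher. Neither difference passed (limma adjusted p = 0.216 and 0.230).

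Ccr2, the CCL2 receptor that releases monocytes from the marrow, gave the reverse picture on its probe ILMN_1222795. It was not detected in WT (6.78 and 6.91), was detected on both G-CSF arrays (7.10 and 7.04) and was detected on 4T1-TB replicate 1 (7.29) but not on 4T1-TB replicate 2 (7.01). The WT values were the lowest 2, by small margins. The bounds on the higher level were at least 1.0-fold in G-CSF and 1.06-fold in 4T1-TB cells (limma adjusted p = 0.476 and 0.272). The other Ccr2 probe, ILMN_1226563, was detected on no array and ranged from 6.80 to 7.02. Ccr1, the receptor of CCL3, CCL5 and CCL6, was likewise detected on no array (6.80 to 6.95).

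C5ar1, the receptor of the complement fragment C5a, was detected on WT replicate 1 only, at 7.60, and lay between 6.83 and 7.03 on the other 5 arrays. The log2 differences were -0.30 in G-CSF and -0.45 in 4T1-TB against WT (limma adjusted p = 0.602 and 0.346), with WT replicate 2 not detected either. Over all 10 receptor probes, G-CSF and WT values did not overlap in 9 (41.5% of all probes), 4T1-TB and WT values in 8 (44.8%) and 4T1-TB and G-CSF values in 2 (30.4%).

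Of 12 measured monocyte markers, 0 rose and 1 fell in G-CSF and 0 rose and 2 fell in 4T1-TB cells, where 6.97% and 8.58% of all genes passed in either direction with 1 probe per gene. Of the 12, 4 were detected on both WT arrays, 3 on both G-CSF arrays and 4 on both 4T1-TB arrays, and F13a1, Ms4a4c, Nr4a1, Ace, Cd300e, Irf8 and Spn were below background in all 3 groups. The summed normalized level of the 12 was 4008 to 4215 in WT, 1590 to 2572 in G-CSF and 1754 to 1821 in 4T1-TB cells. Itgal was the brightest of them in WT, at 10.56 and 10.48, against 7.19 and 8.89 in G-CSF and 7.25 and 7.09 in 4T1-TB cells. Treml4 had 9.38 and 9.36, 7.12 and 7.33, and 7.08 and 7.16 in the same order. Treml4 fell in both comparisons and Itgal in 4T1-TB cells, so the sum leaned on few genes. The summed deposited intensities, 2467 to 2984, 1704 to 2807 and 1682 to 2058, overlapped between WT and G-CSF. The 12 macrophage markers summed to 2269 to 2358 in WT, 1639 to 1763 in G-CSF and 1515 to 1672 in 4T1-TB cells after normalization. Before it, their sums were 1815 to 1931, 1628 to 1992 and 1460 to 1804. There the G-CSF values overlapped those of both other groups, but both 4T1-TB arrays lay below both WT arrays. Of these 12, 0 rose and 3 fell in each comparison. Of 11 measured immature granulocyte markers, 0 passed in G-CSF, and 4 rose and 1 fell in 4T1-TB cells. Their median log2 fold change was 0.27 in G-CSF and 1.01 in 4T1-TB cells. The part of monocytes, macrophages or immature granulocytes in the values of Cx3cr1, Cxcr2 and Cxcr4 was not tested.

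Among 35 other chemoattractant receptors, 32 had a probe and 10 of these were detected on at least 2 arrays. In each comparison with WT, 2 rose and 1 fell, against 6.97% of all genes that passed in G-CSF and 8.58% in 4T1-TB cells with 1 probe per gene. The median log2 fold change of the 32 was 0.015 in G-CSF and -0.0014 in 4T1-TB cells, beside 0.012 and 0.011 over all genes. Most of these receptors were near background and had fold changes close to 0.

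Cxcr1, a close relative of Cxcr2 that binds CXC chemokines, had log2 intensities of 8.65 and 8.60 in WT, 10.18 and 10.89 in G-CSF and 10.48 and 10.04 in 4T1-TB cells. It was higher on each of the 4 arrays than on either WT array and rose by 1.91 and 1.64 (SE 0.26, limma adjusted p = 0.0159 and 0.0241). On the quantile-normalized scale it therefore went the other way from Cxcr2, whose changes did not pass and had no common direction after median centring. Cross-hybridization between the pair was not tested. The Cxcr1 calls were lost without either WT array (adjusted p = 0.125 to 0.181), in 4T1-TB also without either 4T1-TB array (0.165 and 0.0860), and after median centring, where the differences were larger, 3.25 and 2.70 (adjusted p = 0.0647 and 0.0932).

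P2ry6, a receptor of extracellular UDP, had log2 intensities of 7.90 and 7.90 in WT, 9.49 and 9.50 in G-CSF and 8.80 and 9.09 in 4T1-TB cells. The 3 groups did not overlap, with G-CSF the highest. P2ry6 rose by 1.60 and 1.05 (SE 0.10, limma adjusted p = 0.00150 and 0.00494), and the G-CSF call was kept after median centring (2.60, adjusted p = 0.0455), while the 4T1-TB call was lost there (1.75, adjusted p = 0.0908) and without either WT array (up to 0.0597). C5ar2, the second receptor of C5a, which does not couple to G proteins, had log2 intensities of 8.0 and 8.22 in WT, 6.99 and 6.97 in G-CSF and 7.08 and 6.91 in 4T1-TB cells. It was lower by a factor of at least 2.11 in G-CSF, where it was not detected, and fell by 1.12 in 4T1-TB cells, where 1 array detected it (limma adjusted p = 0.00402 and 0.00386). After median centring the C5ar2 differences were -0.61 and -0.59 (adjusted p = 0.0852 and 0.108).

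Downstream of the receptors, 32 of 35 genes of signaling and desensitization were measured, 24 of them detected on at least 2 arrays. In G-CSF cells 3 rose and 4 fell, where 6.97% of all genes and 17.8% of detected probes passed, and in 4T1-TB cells 3 rose and 6 fell, beside 8.58% and 21.5%. The median log2 fold change was -0.11 and -0.14, beside 0.012 and 0.011 over all genes. Gng2, a G protein γ subunit, rose by 0.91 and 0.88, Vav1, an exchange factor of Rac, by 0.68 and 0.76, and Plcb2, a phospholipase C driven by G proteins, by 0.67 and 0.58 (limma adjusted p from 0.00142 to 0.00864). The other Gng2 probe, detected on 5 arrays, did not pass, with differences of 0.78 and 0.28 (adjusted p = 0.160 and 0.711).

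Grk6, a kinase that phosphorylates activated receptors, had log2 intensities of 8.76 and 8.79 in WT, 6.81 and 6.95 in G-CSF and 6.78 and 6.90 in 4T1-TB cells. It was detected only in WT and was lower by a factor of at least 3.35 and 3.31 (limma adjusted p = 0.000593 and 0.000567), although its other probe, detected on 1 array, had differences of -0.04 and -0.10. Rgs19, which speeds the G protein back to rest, fell by 0.60 in G-CSF and was lower by a factor of at least 1.65 in 4T1-TB cells (limma adjusted p = 0.0202 and 0.00894). Its other probe, detected on 4 arrays, had differences of -0.04 and -0.09.

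The arrestins Arrb1 and Arrb2, which uncouple receptors and take them into the cell, were also lower. Arrb1 was lower by a factor of at least 1.42 and 1.40 on its brightest probe (limma adjusted p = 0.0387 and 0.0281). Arrb2 fell by 0.99 and 0.98 with quantile normalization (limma adjusted p = 0.0311 and 0.0282) but turned to 0.51 and 0.29 after median centring, so its direction depended on the scaling. After median centring none of the 32 genes passed (limma). Gng2, Vav1 and Grk6 passed whichever single array was left out, but with a trended and robust prior the calls of Vav1 (limma adjusted p = 0.230 in G-CSF cells, 0.142 in 4T1-TB cells), Plcb2 (0.0644, 0.118) and, for G-CSF alone, Arrb2 (0.0569) were lost. Without WT replicate 2, and in part without other arrays, the calls of Plcb2 (limma adjusted p up to 0.0579 in G-CSF and 0.0788 in 4T1-TB), Rgs19 (up to 0.163 and 0.0899) and Arrb2 (up to 0.202 and 0.185) were lost. Those of Arrb1 were lost without WT replicate 1 and without 4T1-TB replicate 1 or 2 (up to 0.106 in G-CSF and 0.202 in 4T1-TB).

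**Figure D4:**
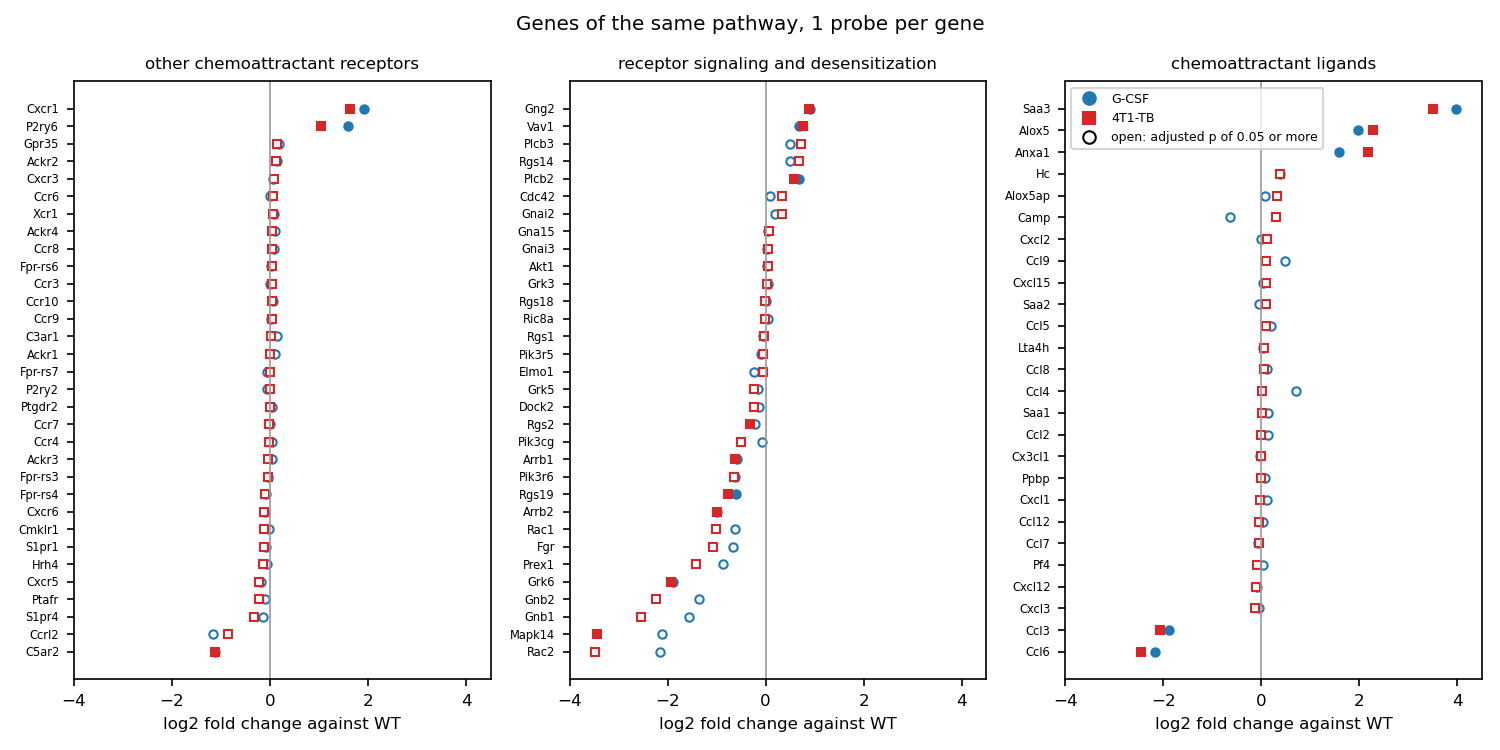
log2 fold changes against WT (horizontal axis) of the measured genes of 3 lists, 1 probe per gene, with G-CSF as circles and 4T1-TB as squares, filled where the adjusted p was under 0.05. Saa3 and Ccl6 lie at the 2 ends of the ligands, and Cxcr1 is the highest receptor. The lowest receptor is C5ar2 in 4T1-TB and Ccrl2, which did not pass, in G-CSF. Most of the other receptors and ligands lie near 0.

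Of 28 ligands and ligand-making enzymes, 26 were measured and 12 detected on at least 2 arrays, and in each comparison 3 rose and 2 fell, where 6.97% of all genes passed in G-CSF and 8.58% in 4T1-TB cells. With the probe of largest variance for each gene, 2 rose and 3 fell in each. The median log2 fold change was 0.054 in G-CSF and 0.031 in 4T1-TB cells. Saa3, a serum amyloid A protein, was not detected in WT (6.91 and 6.92) and had log2 intensities of 10.61 and 11.15 in G-CSF and 10.37 and 10.44 in 4T1-TB cells. Its level was higher by a factor of at least 14 and 10.1 (limma adjusted p = 0.000707 and 0.000814), and both calls were kept after median centring (adjusted p = 0.0273 and 0.0316).

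Anxa1, which encodes annexin A1, had log2 intensities of 7.37 and 7.23 in WT, 9.14 and 8.62 in G-CSF and 9.66 and 9.30 in 4T1-TB cells. It rose by 1.58 and 2.18 (limma adjusted p = 0.0134 and 0.00468), with no overlap between WT and the other arrays. Alox5, the 5-lipoxygenase that starts the synthesis of leukotriene B4, rose by 1.98 and 2.28 on its brightest probe (limma adjusted p = 0.0376 and 0.0212). Its other 2 probes, each detected on 3 arrays, went the other way, by -2.91 and -3.39 on the first and -0.61 and -0.75 on the second, so the array gave no single direction for Alox5.

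Ccl3, a ligand of Ccr1, had log2 intensities of 8.90 and 8.94 in WT, 6.89 and 7.17 in G-CSF and 6.88 and 6.85 in 4T1-TB cells, and fell by 1.89 in G-CSF and was lower by a factor of at least 3.67 in 4T1-TB cells (limma adjusted p = 0.000996 and 0.000794). Ccl6, which also binds Ccr1, had log2 intensities of 9.23 and 9.54 in WT, 6.81 and 7.62 in G-CSF and 6.92 and 6.95 in 4T1-TB cells. It fell by 2.16 in G-CSF and was lower by a factor of at least 5.05 in 4T1-TB cells (limma adjusted p = 0.0120 and 0.00768). Both were highest on the 2 WT arrays, and each was detected on 1 of the 2 G-CSF arrays, so that the other value there is not well above background. Saa3 and Ccl3 passed whichever single array was left out, whereas the calls of Anxa1 (limma adjusted p up to 0.131 in G-CSF and 0.0608 in 4T1-TB), Alox5 (up to 0.238 and 0.166) and Ccl6 (up to 0.116 and 0.0810) were lost without either WT array, among others. Between 4T1-TB and G-CSF, 0 genes of the 3 lists passed with limma, and 1 of the other receptors, 0 signaling genes and 3 ligands had an unadjusted P under 0.05.

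Cxcr4 was the receptor called against WT, so the genes most like it over the 6 arrays were sought among 6146 genes detected on both arrays of a group. With each gene centred on its own mean, the smallest root mean square differences were those of Fbln1, an extracellular matrix protein (0.0699 on the log2 scale), Elac2, a nuclease of tRNA processing (0.0734), and S100a6, a calcium-binding protein (0.0867). Fbln1 had log2 intensities of 7.93 and 7.93 in WT, 6.77 and 6.85 in G-CSF and 6.86 and 7.17 in 4T1-TB cells. Fbln1 and Elac2 lay below the lowest detected signal of G-CSF replicate 1 (7.04), G-CSF replicate 2 (7.03) and 4T1-TB replicate 1 (7.04). Their falls were thus cut off by the background there, whereas Cxcr4 was detected on all 6 arrays. The likeness is a description over 6 arrays that were normalized together.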

How the data were processed

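Gene expression in the sorted cells was read on 6 arrays, 2 per group. The deposited intensities came from GenomeStudio with a deposited detection p-value for each probe. The study's methods name background subtraction, but no deposited intensity was below 85.3. The authors took log2 and applied quantile normalization (lumi in R), and both steps, repeated here, matched the deposited log2 values with differences of at most 4.99e-09. The intensity columns of G-CSF and 4T1-TB replicate 1, which carry no number, were assigned by elimination, which this match bears out.

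Probes were named from the platform annotation. Of 45281 probes, 34885 had a single gene, 18 several and 10378 none. Group means were fitted over all 6 arrays with limma 3.58.1 in R 4.3.3 (3 residual and 2.59 prior degrees of freedom) after a test on simulated data, and p-values were adjusted by Benjamini-Hochberg over all probes at a threshold of 0.05. The number of arrays, 2 per group, limits the precision: the 95% interval of a log2 fold change reached a median of 0.29 to either side over detected probes. The p-values measure the spread between these samples. For gene lists the probe with the highest mean was used. Every receptor probe was described, with a value per array where both arrays of a group detected it, together with up to 4 called genes per list, direction and comparison with the smallest adjusted p. The receptors and lists were chosen with earlier results of these data known. Alternatives were neqc (offset 16), median centring, detected probes only, a replicate block, the probe with the largest variance per gene, the compared arrays only, a trended and robust prior, the methods' criterion and leaving out each array.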

Additional observations from a re-analysis of the deposited data

How the results depend on the processing

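The recomputed normalization matched the deposited values, so it could change no result and is no check of them. The count of receptor probes that passed, 1 in each comparison with WT, became 0 and 0 with neqc, 0 and 0 with median centring, 2 and 2 over detected probes only, 3 and 3 (Cxcr2 and Cx3cr1 added) with the trended and robust prior, and 4 in 4T1-TB against WT with only the 4 arrays compared. By the methods' criterion it was 2 in G-CSF against WT. Of the other receptors 1 and 0 passed with median centring. Of the signaling genes 0 and 0 passed with median centring, 4 in G-CSF with the trended prior, 18 in 4T1-TB with only its 4 arrays, and 1 and 4 by the methods' criterion. Of the ligands 3 in G-CSF passed with neqc, and 1 and 1 with median centring. The cause of these changes was not tested.

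Leaving out 1 array gave 0 to 3 receptor probes in G-CSF against WT, 0 to 4 in 4T1-TB against WT (4 without either G-CSF array) and 0 to 1 in 4T1-TB against G-CSF. The other receptors ranged from 2 to 4 and from 1 to 4 against WT, the signaling genes from 4 to 17, 3 to 18 and, in 4T1-TB against G-CSF, 0 to 8, and the ligands from 2 to 7, 2 to 6 and 0 to 5. The 8 and the 5 came without G-CSF replicate 1, the 17 without G-CSF replicate 2, and the lone array was assumed to vary like the other groups.

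With median centring the sign turned for Cxcr2 in G-CSF against WT (0.18), for Cxcr4 in 4T1-TB against WT (0.0052) and for Arrb2 (0.51 in G-CSF, 0.29 in 4T1-TB). Differences between 4T1-TB and G-CSF, none past the threshold over all 6 arrays, changed sign when 1 array was left out, from -0.42 to 0.35 for Cxcr2, -0.079 to 0.45 for Cxcr4, -0.067 to 0.22 for Ccr2, -0.0904 to 0.134 for Cx3cr1, -0.033 to 0.47 for Fpr2 and -1.25 to 0.74 for Ltb4r1. The last reached an adjusted p of 0.0163 (limma) without G-CSF replicate 1. Cx3cr1 (-0.019 with neqc) and Fpr2 (-0.038 with median centring) turned as well.

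The replicate numbers did not meet the criterion for pairs, every r above 0.1. Deviations of replicate 1 from the group mean correlated over 11527 detected probes with r = 0.02 between WT and G-CSF, -0.02 between WT and 4T1-TB and 0.24 between G-CSF and 4T1-TB. With the replicate number as a block, 1, 1 and 0 receptor probes passed. The block took Cxcr1 in 4T1-TB (adjusted p = 0.0548 from limma) and Arrb1 in both comparisons (0.0740 in G-CSF, 0.0563 in 4T1-TB) out of the called genes and no other named gene. The lowest intensity was 91.7 on WT replicate 2 and 91.8 on G-CSF replicate 1 and 4T1-TB replicate 1, against 85.3 to 85.8 on the other 3 arrays. With this split as a block, chosen after seeing the data, 1, 1 and 0 receptor probes passed and every named gene kept its side of the threshold. Within the arrays of the higher and of the lower value, G-CSF differed from WT by -1.24 and -1.11 for Cxcr4 and by -1.58 and -1.05 for Cxcr2, whereas 4T1-TB differed by -1.26 and -0.72 for Cxcr4 and by -0.93 and -1.77 for Cxcr2.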
